A study of Mus musculus with 16 samples.

Results

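The genes described here were the insulin-like growth factor gene Igf1, its receptor gene Igf1r and the IGF-binding protein genes Igfbp2, Igfbp3, Igfbp4, Igfbp5, Igfbp6 and Igfbp7. These 8 genes were taken by symbol, through their Ensembl identifiers, from a table of 54453 genes, of which 21872 were protein-coding. All 8 were protein-coding and stood among the 15285 protein-coding genes with an average above 0 over the 16 lines, the genes that were tested.

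Total RNA was sequenced from mouse embryonic fibroblasts (MEFs) of strain C57BL/6J, taken from embryos at day 13.5 and immortalised by passaging through crisis, without an added transgene or drug. There were 2 parental lines, called MEF-1 and MEF-2, from sibling embryos, and 7 clonal lines were grown from single sorted cells of each. The study asked how faithfully a state of the single cell is kept as it grows into a population, and the RNA shows which levels the resulting lines reached. Each of the 16 lines had 1 library, so the 7 clonal lines of a set served as its replicates and a parental line had none. Since MEF-1 is male and MEF-2 is female by the typing in the study's methods, and each stands for 1 embryo and 1 course of immortalisation, embryo, sex and line cannot be told apart. A p-value between the sets measures the spread between clones of those lines, not between embryos.

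IGF-I, the product of Igf1, is a secreted growth and survival factor for fibroblasts, and it acts through the receptor tyrosine kinase encoded by Igf1r. The IGF-binding proteins are secreted too. They hold IGF away from the receptor or carry it to the cell surface and matrix, and proteases that cut them set the ligand free. Cultured fibroblasts are known to release several of these proteins into their medium, each cell type with a mixture of its own.

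The values were rlog values, which stand on a log2 scale after correction for library size, so that a difference of 1 is a doubling. The transformation pulls low genes towards their own average, which makes differences of such genes too small. No number of reads was given, so depth is unknown. In RNA of a whole culture, fewer cells that use a gene and less RNA in each cell cannot be told apart. The value that a line gave to the genes with the lowest averages, taken as without reads, ran from -2.285 to -2.279. All 8 genes lay above it in every line. Because rlog draws each gene towards its own average, a gene read in some lines can lie above that level without reads in others. A position above it thus does not show that a gene had reads in each line. The median correlation between libraries over the genes tested was 0.991 within the MEF-1 clonal lines, 0.994 within the MEF-2 clonal lines and 0.973 between the sets. By their average over the lines, all 10 fibroblast markers examined lay above the 40th percentile of protein-coding genes (3.75). Of these, 6 were in the top group of expression. Thy1 ran from 2.72 in its lowest line, below that percentile, to 10.22 in its highest. Dcn ran from 5.77 to 12.24, Lum from 5.51 to 11.88, S100a4 from 8.74 to 11.99 and Pdgfra from 12.13 to 15.41. Col1a1, Col1a2, Col3a1, Pdgfrb and Vim varied less, at most from 18.43 to 19.72 (Col3a1). Summed levels (log2) were 21.72 to 22.20 among MEF-1 clones and 21.49 to 22.17 among MEF-2 clones. They mainly reflect the highest markers, such as Col1a1 (average 20.88). By the same averages, 1 of 5 endothelial and 3 of 5 macrophage and blood markers lay above the 40th percentile. So did 1 of 4 epithelial and 0 of 4 muscle markers, with 0 of all these in the top group. Neural and glial markers, which are in part also used by other cells, had summed levels of 9.70 to 10.89 in MEF-1 and 11.70 to 12.98 in MEF-2 clonal lines, mainly through Tubb3, and Sox10 averaged -1.92. Their part in the differences given below was not tested.

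Per kilobase of the longest coding transcript, Igfbp2 was the most abundant of the 8 transcripts in these fibroblasts. Its average over the 16 lines, after the log2 of the length in kilobases was taken away, was 18.27, and 99.6% of the genes tested lay lower. Igfbp5 followed at 14.53 and Igfbp4 at 13.25, and then came the receptor Igf1r at 12.19 and Igfbp7 at 11.90. The ligand Igf1 stood below these at 9.71, not far above the middle of the genes tested, of which 61.9% were lower. Igfbp6 at 4.26 and Igfbp3 at 1.81 closed the order. Over the 16 lines the SD was 1.11 for Igfbp5, 0.91 for Igfbp4, 0.66 for Igfbp7 and 0.18 for Igf1r, so the steps from Igfbp4 to Igf1r and from Igf1r to Igfbp7 were close to or within the spread. With the merged exons of all isoforms as the length, Igf1r came to 11.63, below Igfbp7 at 11.88.

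**Figure D1:**
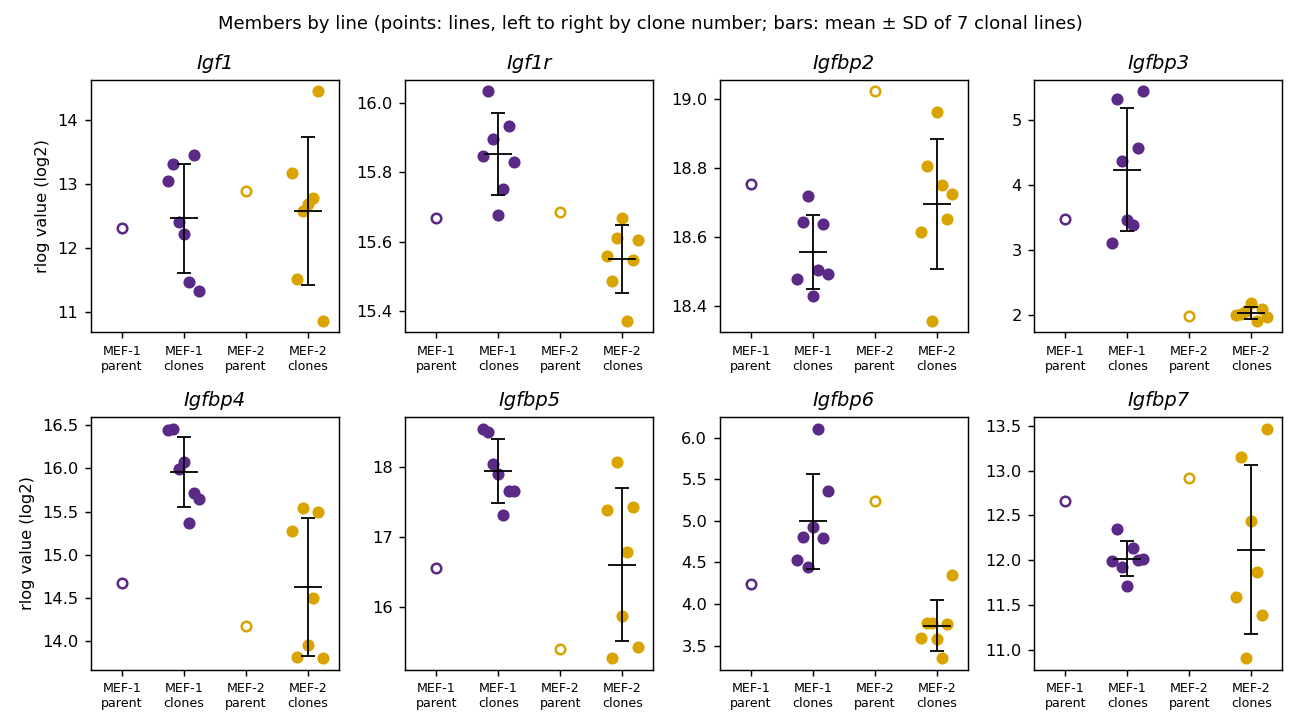
Each panel shows 1 gene, with the rlog value (log2) on the vertical axis. Open circles are the parental lines, filled circles the 7 clonal lines of MEF-1 (purple) and MEF-2 (yellow), and bars the mean and SD of the clonal lines. The MEF-2 clonal lines lie below all MEF-1 clonal lines for Igf1r, Igfbp3 and Igfbp6, and the vertical axes differ between panels.

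Between the clonal lines of MEF-2 and MEF-1, 5 of the 8 genes were lower in MEF-2 and 0 were higher at an adjusted p under 0.05 in limma, where 56.1% of all genes tested passed, 27.5% higher and 28.6% lower. A share of 5 in 8 is close to that background. The 5 genes were the receptor Igf1r and the binding proteins Igfbp3, Igfbp4, Igfbp5 and Igfbp6, while Igf1, Igfbp2 and Igfbp7 did not pass. The ranges of the sets were apart for 3 of the 8, all lower in MEF-2, against 25.9% of the genes tested in either direction and 13.6% in that direction. A called difference of 1 or more was found for 4 of the 8, Igfbp3, Igfbp4, Igfbp5 and Igfbp6, and for 12.9% of the genes tested. The median difference (MEF-2 minus MEF-1) was -0.78 over the 8 genes and -0.0043 over all genes tested. Differences below are MEF-2 minus MEF-1 clonal lines on the rlog scale, with their standard error (SE).

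The ligand gene Igf1 (ENSMUSG00000020053, chr10:87858265-87937042, plus strand, mm10) had rlog values of 11.32 at the lowest, 12.41 at the median and 13.45 at the highest among the MEF-1 clonal lines. Among the MEF-2 clonal lines the lowest was 10.86, the median 12.68 and the highest 14.45, and the parental lines stood at 12.32 (MEF-1) and 12.89 (MEF-2). The sets overlapped almost wholly, and both parental lines lay inside the range of their clones. Its difference between the sets was 0.11 (SE 0.49, n = 7 and 7, limma adjusted p = 0.859, 95% interval -0.93 to 1.16), so differences within that interval are not excluded. Its spread among clones was wide. It covered 12.1-fold in MEF-2, between clonal line 7 at the bottom and clonal line 6 at the top, and 4.37-fold in MEF-1, between clonal lines 7 and 6. The SD was 0.85 in MEF-1 and 1.15 in MEF-2, and of the 4375 genes in the top group of expression only 0.297% and 0.274% had a larger one.

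The receptor gene Igf1r (ENSMUSG00000005533, chr7:67952827-68233668, plus strand) was by contrast held within a narrow band. Clones of MEF-1 had rlog values from 15.68 over a median of 15.85 to 16.03. Clones of MEF-2 had values from 15.37 over 15.56 to 15.67. Every MEF-2 clone was thus below every MEF-1 clone, although the sets nearly met. The difference of -0.30 (SE 0.06, limma adjusted p = 0.000928, exact two-sided permutation p = 0.000583, n = 7 and 7) is 1.23-fold. The SDs of 0.12 and 0.10 were unremarkable, since 65.2% and 60.5% of the genes in the same expression group had a larger one. The parental lines stood nearly level, at 15.67 (MEF-1) and 15.68 (MEF-2). The MEF-1 value lay just below all 7 of its clones and the MEF-2 value just above all 7.

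Igfbp2 (ENSMUSG00000039323, chr1:72824503-72852474, plus strand), a binding protein that carries an integrin-binding motif, was both the highest and among the steadiest of the genes. The MEF-1 clonal lines had 18.43 at the lowest, 18.50 at the median and 18.72 at the highest. The MEF-2 clonal lines had 18.36, 18.72 and 18.96. The MEF-2 range contained that of MEF-1, with a difference of 0.14 (SE 0.12, limma adjusted p = 0.337, 95% interval -0.11 to 0.39). The parental lines, at 18.75 (MEF-1) and 19.02 (MEF-2), were each above all of their clones, by 0.20 and 0.33 over the clonal mean. Both parental lines stood above their clones for 4.85% of the genes tested.

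Igfbp5 (ENSMUSG00000026185, chr1:72857932-72874884, minus strand), a matrix-associated binding protein, lies only 5.46 kb from Igfbp2, with their 3' ends facing. Its levels behaved otherwise. Among MEF-1 clones the lowest value was 17.32, the median 17.90 and the highest 18.56. Among MEF-2 clones they were 15.27, 16.79 and 18.07. MEF-2 clones 2, 4 and 7 lay well below all MEF-1 clones, whereas MEF-2 clones 1, 3 and 6 lay within the MEF-1 range. On average the MEF-2 clonal lines were lower by -1.34 (SE 0.41, limma adjusted p = 0.0114, exact permutation p = 0.0122, n = 7 and 7), which is 2.54-fold. The spread in MEF-2 was 6.99-fold with an SD of 1.10, exceeded by 0.297% of the genes of its expression group. In MEF-1 it was 2.35-fold with an SD of 0.46, exceeded by 4.53%. Both parental lines were low, at 16.56 (MEF-1), below all 7 clones, and 15.40 (MEF-2), below 6 of 7 clones.

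Igfbp4 (ENSMUSG00000017493, chr11:99041244-99054392, plus strand), which holds IGF from its receptor until the protease PAPP-A cuts it, had a like pattern from another chromosome. MEF-1 clones ran from 15.37 over a median of 15.99 to 16.46, and MEF-2 clones from 13.81 over 14.51 to 15.55. The sets overlapped only at their edges. The difference was -1.33 (SE 0.31, limma adjusted p = 0.00194, exact permutation p = 0.00233, n = 7 and 7), or 2.51-fold. The MEF-2 clones covered 3.34-fold (SD 0.80, exceeded by 0.983% of the expression group) and the MEF-1 clones 2.12-fold (SD 0.41, exceeded by 5.99%). The MEF-1 parental line, at 14.68, was below all 7 of its clones and 1.28 under their mean on the log2 scale, while the MEF-2 parental line, at 14.18, was inside the range of its own.

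Igfbp7 (ENSMUSG00000036256, chr5:77349240-77408041, minus strand), a relative with low affinity for IGF, hardly varied in MEF-1 clones and varied widely in MEF-2 clones. The MEF-1 clonal lines had values from 11.71 over 12.01 to 12.35. The MEF-2 clonal lines had values from 10.91 over 11.87 to 13.47, on both sides of all MEF-1 clones. The means were alike (difference 0.10, SE 0.33, limma adjusted p = 0.820, 95% interval -0.61 to 0.80). The SD was 0.20 in MEF-1, near the usual one for its group, and 0.94 in MEF-2, where 0.617% of the group had a larger one. The parental lines stood at 12.67 (MEF-1), above all 7 clones, and at 12.92 (MEF-2), with 2 of its clones still higher. The gene overlaps the end of Polr2b on the other strand. The overlap is under 0.1 kb long and the libraries kept strand, but how Salmon assigned the shared bases is not given in the sources used here.

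Igfbp6 (ENSMUSG00000023046, chr15:102144362-102149511, plus strand), which prefers IGF-II as its ligand, was low in all lines. Clones of MEF-1 ran from 4.45 over 4.81 to 6.11, and those of MEF-2 from 3.35 over 3.76 to 4.34. No MEF-2 clone reached the lowest MEF-1 clone. The difference was -1.25 (SE 0.24, limma adjusted p = 0.000391, exact permutation p = 0.000583, n = 7 and 7), or 2.39-fold. The parental lines were ordered the other way, with 4.24 in MEF-1, below all 7 clones, and 5.24 in MEF-2, above all 7 clones by 1.504 over their mean. The highest MEF-1 clone, clonal line 5, also had the highest median level of chromosome 15 among the lines (0.18 above the autosomes), whose part in the value was not tested.

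Igfbp3 (ENSMUSG00000020427, chr11:7206086-7213923, minus strand), the main carrier of IGF in the circulation, was the lowest of the 8 genes here. The MEF-1 clonal lines ran from 3.10 over 4.37 to 5.45, with clonal lines 2 and 7 at the top. The MEF-2 clonal lines were confined between 1.91 and 2.19, with a median of 2.01. The parental lines were at 3.48 (MEF-1) and 1.98 (MEF-2), each inside the range of its clones. The sets were apart by -2.20 (SE 0.33, limma adjusted p = 5.81e-05, exact permutation p = 0.000583, n = 7 and 7), at 4.60-fold the largest difference of the 8. The MEF-1 clones covered 5.08-fold (SD 0.95), and 3.89% of the 2162 genes in its expression group had a larger SD, against 92.4% for the SD of 0.09 in MEF-2. Because rlog draws low values together, a narrow range at this level does not show that the MEF-2 lines were alike. Over the 8 MEF-2 lines no relation was detected between the Igfbp3 value and the level that each line gave to genes without reads. Pearson's r was 0.290 (exact permutation p = 0.491, adjusted 0.895), and 0.257 once the 2 farthest lines were left out. Spearman's rho was 0.429 (exact permutation p = 0.299, adjusted 0.536). That level ran only from -2.285 to -2.28 in these lines, and rlog can give Igfbp3 another level where it has no reads. The test therefore cannot tell whether Igfbp3 had reads in the MEF-2 lines.

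**Figure D2:**
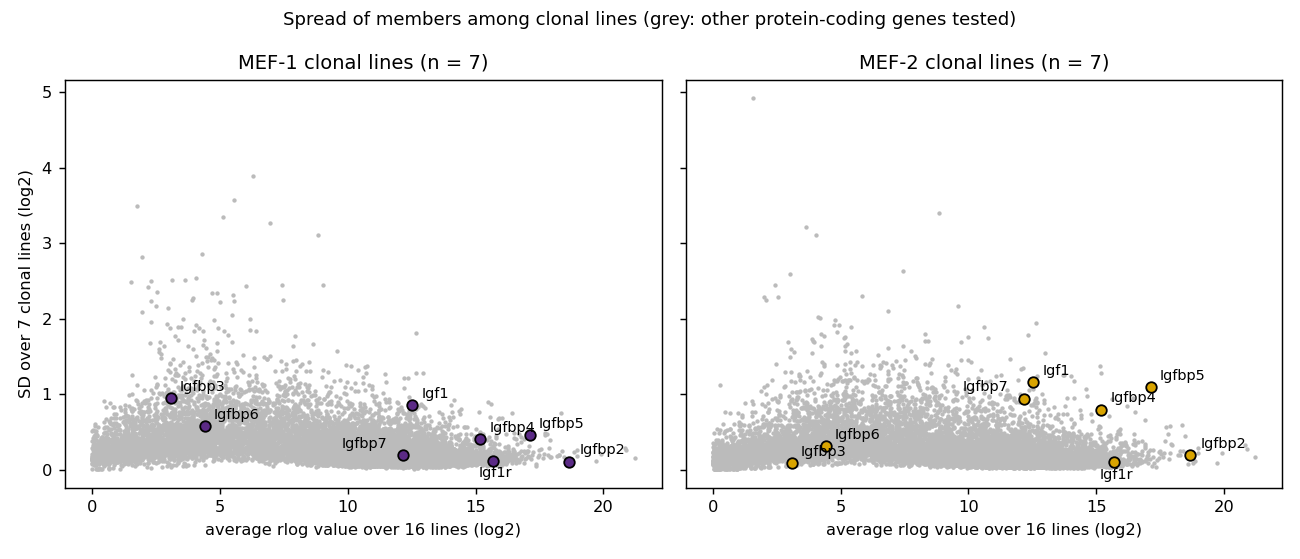
The SD over 7 clonal lines (log2, vertical axis) is plotted against the average rlog value over 16 lines (log2, horizontal axis) for all protein-coding genes tested (grey) and the 8 IGF genes (coloured), in MEF-1 (left) and MEF-2 (right). Igf1 stands above nearly all genes of its level in both sets, Igfbp4, Igfbp5 and Igfbp7 do so in MEF-2, and Igf1r and Igfbp2 lie within the mass of genes.

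The spread among clones thus separated the genes into steady and variable ones. Igf1r and Igfbp2 varied by at most 1.52-fold within either set, while the spread of Igf1, Igfbp4 and Igfbp5 was over 2-fold in both sets. In MEF-2, 4 of the 8 genes (Igf1, Igfbp4, Igfbp5, Igfbp7) had an SD that under 1% of their expression group exceeded, and in MEF-1 only Igf1 did. The median SD of the top group of expression was 0.14 over the MEF-1 clones and 0.11 over the MEF-2 clones.

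Parental lines often lay outside their clones. The MEF-1 parental line was outside the range of its 7 clonal lines for 6 of the 8 genes, and the MEF-2 parental line for 3 of the 8, where 40.9% and 34.2% of the genes tested were outside. In MEF-1 it was below its clones for Igf1r, Igfbp4, Igfbp5 and Igfbp6, as for 20.8% of the genes tested, and above them for Igfbp2 and Igfbp7, as for 20.2%. In MEF-2 all 3 genes outside were above, as were 15.8% of the genes tested, and 18.5% were below. Both were outside for Igf1r, Igfbp2 and Igfbp6, as for 14.8% of the genes tested, and on opposite sides for Igf1r and Igfbp6, as for 3.26%. With 1 library of each parental line these positions were not tested.

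The levels of the variable binding proteins were related. Igfbp4 and Igfbp5 were high or low in the same clones in both sets, and Igfbp7 ran opposite to both among MEF-2 clones. Of 56 relations computed (28 pairs of genes in each of the sets), 11 had an unadjusted exact permutation p under 0.05 and 4 passed after adjustment. All lines of a set share 1 parental line, and n was 7 clonal lines throughout.

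Among the MEF-1 clones, Igfbp4 and Igfbp5 had Pearson's r = 0.982 (exact permutation p = 0.00159, adjusted 0.0278) and Spearman's rho = 0.893 (exact permutation p = 0.0123, adjusted 0.172). Clones 1 and 2 were the highest and clone 5 the lowest for both. Among the MEF-2 clones r was 0.972 (exact permutation p = 0.00198, adjusted 0.0278) and rho 0.964 (exact permutation p = 0.00278, adjusted 0.0519). There clones 2, 4 and 7 were low for both genes, clone 5 was in the middle, and clones 1, 3 and 6 were high. Once the 2 lines most distant in Igfbp4 were left out, r was 0.959 in MEF-1 and 0.967 in MEF-2. In MEF-1, clone 5 also had a chromosome 1 median of -0.19 relative to its autosomes, and Igfbp5 is on chromosome 1 but Igfbp4 on chromosome 11, whose median in that clone was 0.01. The part of these shifts in the relation was not tested beyond taking the chromosome medians away, under which the 4 relations still passed.

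Igfbp7 ordered the MEF-2 clones in reverse. With Igfbp5 it had r = -0.976 (exact permutation p = 0.000595, adjusted 0.0278) and rho = -0.964 (exact permutation p = 0.00278, adjusted 0.0519), and r = -0.989 once the 2 most distant lines were left out. With Igfbp4 it had r = -0.936 (exact permutation p = 0.00179, adjusted 0.0278) and rho = -1 (exact permutation p = 0.000397, adjusted 0.0222), and r = -0.885 without the 2 farthest lines. Clone 3, the highest for Igfbp4 and Igfbp5, was the lowest for Igfbp7, and clones 2 and 7, the lowest for both, were the highest for Igfbp7. The MEF-1 clones gave r = 0.182 with Igfbp5 (exact permutation p = 0.721) and r = 0.0933 with Igfbp4 (exact permutation p = 0.856). Whether the sets differ in these relations was not tested. With 7 lines some other genes were related as closely, but they were a small share of all. Among the MEF-2 clones 0.351% of the 13123 genes over the 40th percentile were related as closely, with the same sign, to Igfbp5 as Igfbp7 was, and 1.66% to Igfbp4. For the relation of Igfbp5 to Igfbp4 the shares, which count Igfbp5 itself, were 0.0229% (MEF-1) and 0.198% (MEF-2).

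The 4 relations rest on few lines. With any 1 clonal line left out, r stayed within 0.972 to 0.997 (Igfbp4 and Igfbp5, MEF-1), 0.964 to 0.983 (the same genes, MEF-2), -0.991 to -0.965 (Igfbp5 and Igfbp7) and -0.958 to -0.914 (Igfbp4 and Igfbp7). With 6 lines, however, the number of relations that passed adjustment fell to 0 without MEF-2 clonal line 1, 5 or 6 and to 2 without clonal line 3 or 4. The relation of Igfbp4 and Igfbp5 in MEF-1 did not pass when any 1 of the 7 MEF-1 clonal lines was left out (exact permutation, adjusted p = 0.0778 to 0.176).

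Igfbp2, the neighbour of Igfbp5, did not follow it. Among the MEF-2 clones its r with Igfbp5 was -0.785 (exact permutation p = 0.0216, adjusted 0.202) and with Igfbp4 -0.783 (exact permutation p = 0.0157, adjusted 0.176), which did not pass. In the MEF-1 clones they were 0.167 and 0.102. The ligand Igf1 had r = 0.760 with Igfbp4 (exact permutation p = 0.0373, adjusted 0.211) and -0.783 with Igfbp7 (exact permutation p = 0.0341, adjusted 0.211) among the MEF-2 clones, which did not pass either.

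**Figure D3:**
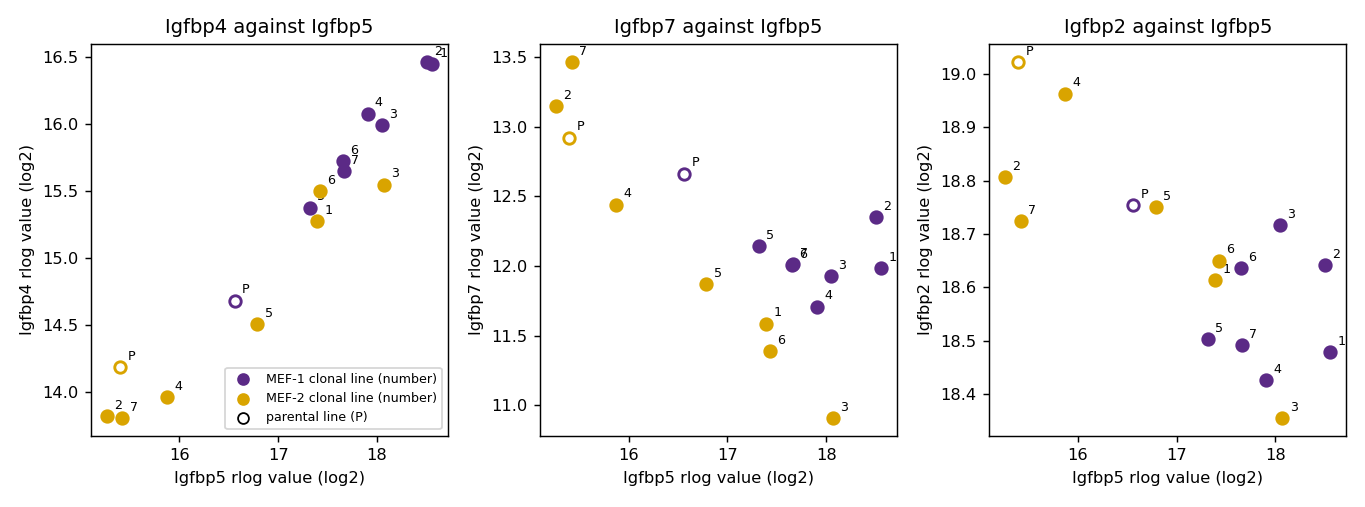
The rlog values (log2) of Igfbp4 (left), Igfbp7 (middle) and Igfbp2 (right) on the vertical axes are plotted against that of Igfbp5 on the horizontal axes, with 1 point per line, numbered by clone, and P for the parental lines. Igfbp4 rises with Igfbp5 in both sets (r = 0.982 and 0.972), while Igfbp7 falls with it among the MEF-2 clones (r = -0.976).

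The sequences just upstream of these 4 genes are shown because their levels moved together, in opposition, or, for Igfbp2, not with those of the neighbouring Igfbp5. They are the 250 bases before the RefSeq start site (GRCm38.p6), read 5' to 3' on the strand of the gene, with each CG dinucleotide in capitals. CG is the site of DNA methylation, the state that the study followed in these lines, although methylation was not analysed here.
Igfbp4, chr11:99040994-99041243, plus strand: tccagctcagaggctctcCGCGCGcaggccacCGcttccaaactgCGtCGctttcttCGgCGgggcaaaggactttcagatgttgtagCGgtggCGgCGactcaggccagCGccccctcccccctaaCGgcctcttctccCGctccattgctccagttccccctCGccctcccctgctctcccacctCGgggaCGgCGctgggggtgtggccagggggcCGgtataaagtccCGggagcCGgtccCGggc
Igfbp5, chr1:72874866-72875115, minus strand: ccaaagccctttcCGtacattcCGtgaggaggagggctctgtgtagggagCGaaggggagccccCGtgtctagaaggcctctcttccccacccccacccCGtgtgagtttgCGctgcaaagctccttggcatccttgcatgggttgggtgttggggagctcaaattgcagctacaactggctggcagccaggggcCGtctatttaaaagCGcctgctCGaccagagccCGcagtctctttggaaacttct
Igfbp7, chr5:77408046-77408295, minus strand: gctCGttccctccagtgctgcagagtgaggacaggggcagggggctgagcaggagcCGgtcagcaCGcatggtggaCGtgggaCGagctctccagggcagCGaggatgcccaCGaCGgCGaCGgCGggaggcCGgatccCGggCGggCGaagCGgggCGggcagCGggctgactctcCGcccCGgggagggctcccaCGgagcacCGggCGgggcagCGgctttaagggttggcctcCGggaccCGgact
Igfbp2, chr1:72824230-72824479, plus strand, the first of 2 RefSeq starts: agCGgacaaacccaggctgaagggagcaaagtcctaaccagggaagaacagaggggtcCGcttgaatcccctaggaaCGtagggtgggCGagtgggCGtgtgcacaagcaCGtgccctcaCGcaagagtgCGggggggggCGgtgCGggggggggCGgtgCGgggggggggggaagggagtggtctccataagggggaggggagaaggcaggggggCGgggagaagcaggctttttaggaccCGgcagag

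The windows of Igfbp4 and Igfbp5 had 22 and 10 CG dinucleotides, and those of Igfbp7 and Igfbp2 had 26 and 14, where the median of 32851 mouse windows was 6. More CG was found in 13.3% of all windows than in that of Igfbp4, in 35.6% for Igfbp5, in 8.56% for Igfbp7 and in 27.3% for Igfbp2. TATAAA, searched on both strands, was in the window of Igfbp4 and in 12.4% of all windows. GGGCGG, searched on both strands, was in those of Igfbp7 and Igfbp2 and in 32.7% of all windows. Of the other genes, Igf1r had 42 CG, more than all but 0.712% of windows, and Igf1 had 5, near the median. The Igf1 window (chr10:87860861-87861110) lies inside the gene as annotated above, which starts at 87858265. A relation of CG content to the spread among clones was not tested. Igfbp3 had 32 and Igfbp6 had 7. All 8 genes had a RefSeq window, and these matches describe the letters only.

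The genes most like each of the 8 except Igfbp3 were sought over the 14 clonal lines, after the mean of each set was taken away. The search was among genes above the 40th percentile, and Igfbp3 averaged below it. For Igfbp5 the closest was Igfbp4 (r = 0.971), and for Igfbp4 it was Igfbp5, followed by Fam198a (0.951) and Gbgt1 (0.947). Zfp839 and Lekr1 followed for Igfbp5, both at 0.941. Igf1 was closest to Cacnb2 (0.928), a calcium channel subunit, and to Chd6 (0.912). Igfbp2 was closest to Fn1 (0.869), the fibronectin gene, and Mapre1 (0.863). Igf1r was closest to Rab31 (0.858), and Igfbp6 to Timm10b (0.914). For Igfbp7, Msantd3 (0.953), Pon2 (0.952) and Vti1b (0.952) came first, but this likeness lay in the MEF-2 clones, as r in the MEF-1 clones was 0.284, 0.149 and 0.313. These correlations share the same 14 libraries and carry no p-value.

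Among the other genes of the IGF pathway, 51 of 57 listed genes were tested, and 11 were higher and 18 lower in the MEF-2 clonal lines in limma, which at 29 of 51 is near the 56.1% of all genes tested. Their median difference was -0.13. The ligand list held the widest difference. Igf2, the second IGF ligand and an imprinted gene, spanned 11.44 to 15.59 among MEF-1 clones and 7.64 to 8.59 among MEF-2 clones, a difference of -5.29 (SE 0.45, limma adjusted p = 2.03e-07). The parental lines stood at 13.93 (MEF-1) and 7.87 (MEF-2), which gives the same order as the clones with 1 library each and no test.

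Of the other receptors, Insr, the insulin receptor, was lower in MEF-2 (-1.06, SE 0.09, limma adjusted p = 3.02e-07) and Tmem219, a receptor for IGFBP-3, was slightly higher (0.29, SE 0.08, limma adjusted p = 0.00697). Igf2r, which clears IGF-II, had a difference of 0.20 (SE 0.10, limma adjusted p = 0.118) that did not pass, except without MEF-1 clonal line 4 (0.25, adjusted p = 0.0378). Igfals, which encodes the acid-labile subunit of the circulating complex, was low and differed by -0.67 (limma adjusted p = 0.0338), a call lost with quantile normalization (adjusted p = 0.224) and when single clonal lines were left out, MEF-1 line 1, 2 or 4 or MEF-2 line 1, 2, 5, 6 or 7 (adjusted p = 0.0531 to 0.0709). Igfbp1, which lies 3.54 kb from Igfbp3, stood at the level without reads in 15 of the 16 lines and was not tested.

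Among genes that release IGF from its binding proteins, the protease genes Pappa (-0.18, limma adjusted p = 0.306) and Htra1 (-0.27, adjusted p = 0.278) did not pass. The stanniocalcins, which inhibit PAPP-A, differed in opposite directions. Stc1 was lower in MEF-2, with clonal means of 7.30 in MEF-1 and 4.69 in MEF-2 (-2.62, SE 0.38, limma adjusted p = 3.83e-05), and Stc2 was higher, with 10.56 and 11.64 (1.08, SE 0.20, limma adjusted p = 0.00037). For Stc1 the parental lines stood at 5.26 (MEF-1), below all its clones (6.10 to 8.29), and 4.17 (MEF-2). For Stc2 they stood at 11.37 (MEF-1) and 12.47 (MEF-2), each above all of its clones. In this list of 8 tested genes 2 were higher and 2 lower, the others being Adam12 (0.84) and Htra3 (-0.83). Of the 3 proteins that bind Igf2 mRNA, Igf2bp3 was lower (-3.90, SE 0.52, limma adjusted p = 1.76e-05), Igf2bp2 was slightly higher (0.35) and Igf2bp1 did not pass. The MEF-2 parental line did not share the low Igf2bp3 level of most of its clones. It stood at 9.60, above all of them (5.63 to 9.53), and the MEF-1 parental line stood at 10.54 (clones 9.76 to 10.96), with 1 library each and no test.

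Downstream of the receptor, 7 of 10 adaptor genes passed, 3 higher and 4 lower, where 27.5% of all genes tested were higher and 28.6% lower. With so few genes in a list, neither this count nor those of the other lists is read as apart from that background. Irs2, an adaptor of the receptor, was lower (-0.65, limma adjusted p = 0.0054), and the inhibitory adaptors Grb10 (0.41, adjusted p = 0.00536) and Grb14 (0.81, adjusted p = 0.0023) were higher. The parental lines were ordered the other way for each of these genes, with 1 library each and no test. In MEF-1 and MEF-2 they stood at 12.43 and 12.65 for Irs2, 17.26 and 17.19 for Grb10, and 10.19 and 9.78 for Grb14. Irs1 differed by -0.38 (limma adjusted p = 0.0914), which passed with the clone number as a block (adjusted p = 0.0375), without MEF-2 clonal line 3 (0.045) and without MEF-2 clonal line 6 (0.0432). In the kinase cascade 2 of 15 were higher and 4 lower, with Pik3r1, a regulatory subunit of PI3K, at -1.15 (limma adjusted p = 5.93e-06). Akt1 was higher by 0.57 (limma adjusted p = 2.1e-07), but it lies on chromosome 12, whose median was higher in all MEF-2 clonal lines, and with the chromosome median taken away it stood at -0.066 (limma adjusted p = 0.247). From DNA coverage the paper proposes monosomy of chromosome 12 in some or all MEF-1 lines. Its part in the Akt1 difference was not tested further. Of the FOXO factors Foxo6 was lower (-1.22) and Foxo4 higher by 0.22, a call lost with the chromosome median taken away (limma adjusted p = 0.0925). For Foxo6 the parental lines were again in the other order, at 2.39 (MEF-1) and 2.50 (MEF-2). Of the growth hormone axis, Ghr, the receptor, was higher (0.42) and Stat5b, its transcription factor, lower (-0.64, limma adjusted p = 5.37e-05).

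**Figure D4:**
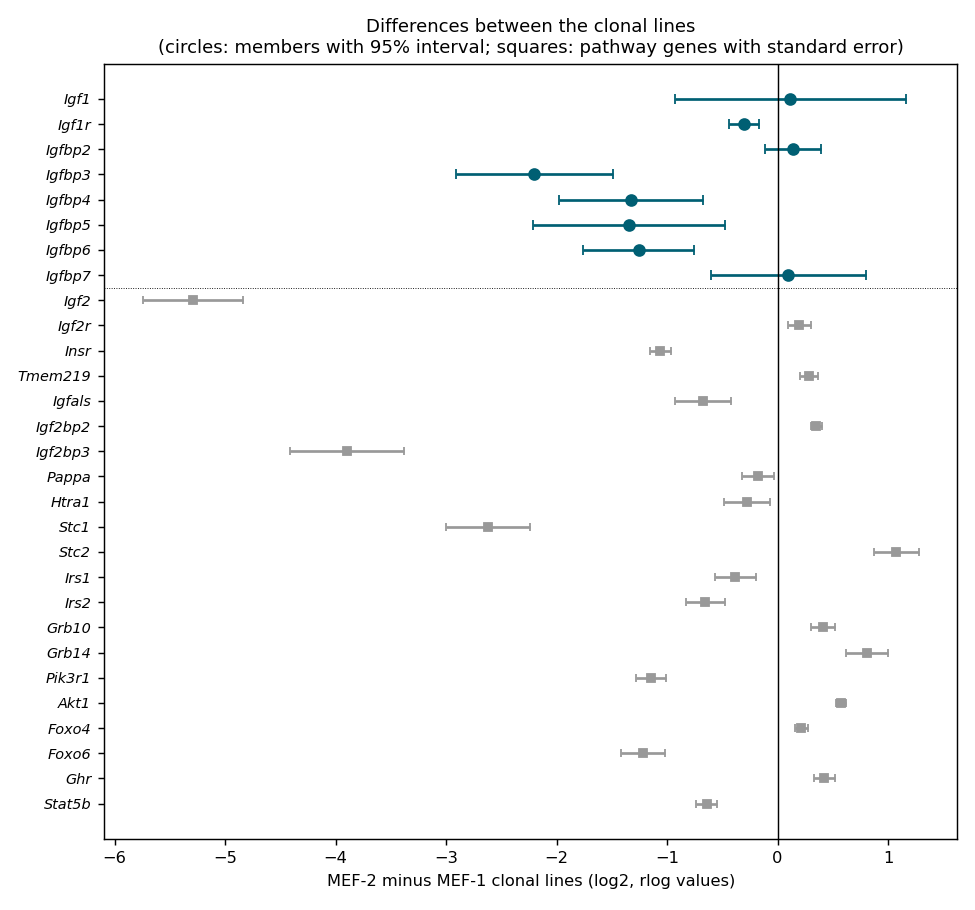
Differences between the clonal lines (MEF-2 minus MEF-1, log2, horizontal axis) are shown for the 8 genes with their 95% intervals (circles) and for the named pathway genes with their standard errors (squares). Igfbp3, Igfbp4, Igfbp5, Igfbp6 and Igf1r lie to the left of 0, and Igf2 lies farthest left at -5.29.

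The surroundings of the 8 genes were compared in the same fit. Of 71 tested genes that start within 500 kb of one of them, 18 were higher and 22 lower in MEF-2, a share of 56.3% called, near the background. Igfbp3 had the neighbour Adcy1, an adenylyl cyclase, 27.58 kb away, and it was lower as well (-1.93, limma adjusted p = 0.00056), as was Tns3 on the other side (-1.52, adjusted p = 2.1e-06), 1217.73 kb away. The wider region did not share this direction, as 5 of 14 tested genes that start within 1000 kb of Igfbp3 were higher and 1 was lower. On the side of Igfbp5 away from Igfbp2, Tns1 was lower (-1.34, limma adjusted p = 9.92e-05) at a distance of 1035.35 kb. Of the 4 tested genes that start within 500 kb of Igfbp5, 0 were called. Igfbp4 had neighbours that did not follow it. Top2a, a topoisomerase used in dividing cells, 17.05 kb away, was higher (0.91, limma adjusted p = 0.00263), and Tns4, 11.28 kb away, differed by -0.11 (adjusted p = 0.648). Within 500 kb of Igfbp6, 12 of 27 tested genes were lower and 3 higher (28.6% and 27.5% of all genes tested), and its nearest neighbours were Spryd3 (-0.19, limma adjusted p = 0.0274) and Soat2 (-0.52, adjusted p = 0.125). Near Igf1, Parpbp was higher (1.15, limma adjusted p = 2.16e-05). Near Igf1r, Fam169b was lower (-0.45, limma adjusted p = 0.0042) and Synm differed by -0.52 (adjusted p = 0.0826). Polr2b, which overlaps Igfbp7, was higher by 0.30 (limma adjusted p = 0.00036). Adgrl3, the nearest tested gene on the other side but 3612.1 kb away, differed by 0.82 (limma adjusted p = 0.0104). Rpl37a, beside Igfbp2, differed by 0.03 (limma adjusted p = 0.693).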

How the data were processed

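Total RNA libraries of 16 lines were depleted of ribosomal RNA and prepared with a kit that keeps strand. Per the labels and the submitters' processing notes, reads were trimmed (Trim Galore 0.6.0) and quantified (Salmon 1.5.2, mm10), and the authors deposited 1 log2 value per gene and line, made with the rlog transformation of DESeq2 1.24.0. How transcripts were summed to genes, and if rlog was run blind to group labels, is not given in the sources used here. Counts were not used here, and count tests were thus not run. The number of column names without a sample was 0.

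Identifiers were matched to GENCODE mouse release 21 (mm10), which held 54200 of the 54453 genes. Protein-coding genes with an average above 0 were fitted with limma 3.58.1 (R 4.3.3, trended prior, 7 against 7 clonal lines) and p-values adjusted by Benjamini-Hochberg over all 15285. Expression groups were bounded by an average of 0 and by its 40th, 60th and 80th percentile. Pairs of genes were compared by exact permutation within each set and adjusted over 56 relations. In simulated data for this comparison, limma called 169 of 200 genes shifted by 1 and 11 unshifted genes among 15285. Chromosome medians were taken per line relative to the autosomes. Clones that share a number between sets grew from different cells and were not paired.

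The genes and pathway lists were chosen with earlier results of these data known. Named were the 8 genes, Igf2, Igf2r, Insr, Igfbp1, Pappa, Stc1, Stc2, Htra1, Irs1, Irs2 and Grb10, the called gene of each list with the largest difference each way, the nearest tested gene on each side, and up to 3 genes most like each of those above the 40th percentile. Of the nearest genes, 1 is not reported here. Alternatives were other filters, priors, centring, quantile normalization, chromosome medians taken away, a block, added parental lines, other windows and single lines left out. Python 3.11.15 with pandas 2.3.3, numpy 2.4.6, scipy 1.17.1 and matplotlib 3.10.9 was used. Bisulfite data of the study were not analysed here.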

Additional observations from a re-analysis of the deposited data

Results flagged for a closer look

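Igfbp6 in MEF-2 clonal line 7, at an rlog value of 4.34, was far from the other 6 MEF-2 clones, the nearest of which stood at 3.77, a gap of 0.576 of the whole range. The chromosome 15 median of that line was -0.04. It was the only such sample in 16 sets of 7 clonal lines (8 genes in both sets), where chance flags about 1 in 20 sets, or 0.8 of 16.

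The parental lines stood on opposite sides of their clones for Igf1r and Igfbp6, which 3.26% of the genes tested share. For Igf1r the parental value minus the clonal mean was -0.18 in MEF-1 and 0.13 in MEF-2. For Igfbp6 it was -0.76 in MEF-1 and 1.504 in MEF-2. With 1 library of each parental line, whether the sets differ in this was not tested.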

How the results depend on the processing

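Of the 8 genes, 5 were lower and 0 higher in MEF-2 under each alternative run and with each clonal line left out, except that 4 were lower among genes above the 40th percentile, where Igfbp3 was not tested. Leaving out single clonal lines gave -0.20 to 0.40 for Igf1 (below 0 without MEF-1 line 5, at -0.051, MEF-1 line 7, at -0.076, or MEF-2 line 6, at -0.20) and -0.13 to 0.30 for Igfbp7 (below 0 without MEF-2 line 2, at -0.076, or line 7, at -0.13), neither of which passed. The number of relations that passed ranged from 0 to 4. Low p-values are harder to reach with 6 lines than with 7, but the number also depended on which line was left out. Among the pathway genes 11 to 12 were higher and 16 to 21 lower with single lines left out, and 9 to 11 higher and 15 to 19 lower under the other alternatives. With merged exons the levels per length of Igf1r and Igfbp2 moved to 11.63 and 17.77. With the chromosome median taken away the difference of Akt1 (MEF-2 minus MEF-1) turned to -0.066. The replicate block by clone number rests on a shared number alone. The deviations of same-numbered clones correlated by -0.133 to 0.200, 1 of 7 lines correlated best with its own number, and the block left 0 genes higher and 5 lower of the 8, with 4025 higher and 4201 lower of all genes tested. Of 1075 values under alternatives, 1027 kept direction and side of the threshold or moved by less than the spread. Depth is unknown, so the counting error of the low values of Igfbp3 and Igfbp6 cannot be stated.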
